A study of Mus musculus with 12 samples.

Results

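Tubule injury response genes were followed in glomeruli of mice with Alport syndrome (AS), a kidney disease caused by mutations of type IV collagen. The 8 genes are Havcr1, Lcn2, Clu, Spp1, Sox9, Krt20, Vim and Anxa2, which were picked by symbol from the deposited tables, out of 27570 genes in the male tables and 26025 in the female tables. Glomeruli had been isolated by collagenase digestion and sieving from mice of 3.5 months, and polyA RNA was sequenced. The age is that of the sample labels, and the supplement of the study gives a different age for the males. Male AS mice carried the Col4a5 -/- genotype (B6.Cg-Col4a5 tm1Yseg/J), a mutation of the X-linked type IV collagen gene Col4a5, and male WT mice were C57BL/6J. Female AS mice were heterozygous, Col4a5 +/-, and female WT mice were C57BL/6J. Each group was listed with 3 samples, but the table of female WT replicate 3 repeats that of replicate 1 (largest difference 4.37e-08), so 11 distinct libraries were used and female WT has n = 2. The mutation is present in every cell of the male AS mice, whereas heterozygous females are mosaics because an X chromosome is inactivated in each cell.

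Injured tubule epithelium switches on a set of genes that most resting tubule cells keep low. Havcr1 encodes the membrane protein KIM-1, a phosphatidylserine receptor of injured proximal tubule cells, and Lcn2 encodes the iron-siderophore binding protein NGAL. Clu encodes the secreted chaperone clusterin and Spp1 the integrin ligand osteopontin. Sox9 is a transcription factor of regenerating epithelium, Krt20 and Vim encode the intermediate filament proteins keratin 20 and vimentin, and Anxa2 encodes a calcium-dependent membrane binding protein. Several of them are also used by uninjured cells: Vim by podocytes, endothelium and mesangium, Spp1 and Clu by parts of the distal nephron, and Lcn2 by neutrophils. In RNA of whole glomeruli, fewer cells of a type and less RNA per cell cannot be told apart.

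The deposited values are gene counts scaled by TMM, a method that corrects for the composition of each library, and they are called TMM-normalized counts here. They sum to 14242205.7 to 15379574.1 in male AS and 16737294.7 to 23182937.0 in male WT libraries. The female sums are 16941020.1 to 17153145.4 in AS and 17777238.1 to 20152078.0 in WT. A single read pair is worth 0.7745 to 0.8699 in male AS and 1.1547 to 1.23 in male WT. In females it is worth 0.8341 to 0.9655 in AS and 1.0067 to 1.13 in WT, so the scaling differed with genotype. Col4a5 was at 657.3 ± 78.8 in male AS and 1496.6 ± 328.4 in male WT glomeruli (SD, n = 3 each), and at 1242.3 ± 76.4 in heterozygous female AS (n = 3) and 2040.0 ± 408.0 in female WT glomeruli (n = 2), lower in every AS library of its sex. All 19 podocyte markers were listed above 0 in at least one library of each sex. So were all 28 proximal tubule markers in males and 27 of them in females, so the isolated glomeruli held RNA of tubules too. The female headers open with one label for AS and another for WT, and the meaning of the label is not given. Whatever it stands for cannot be told apart from genotype in females. The male headers hold no such label, so a batch in males could not be looked for.

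Only genes that reached 0.5 CPM (the value scaled to its column total) in 3 or more libraries entered limma, on log2(value + pseudocount), where the pseudocount is 1 CPM of the mean column total. Fold changes on this scale understate the change of low genes. P-values were adjusted by Benjamini-Hochberg over all genes tested, with calls at 0.05. They set each difference against the spread between these samples, with the spread of each gene drawn toward a trend over all genes. An exact permutation test could not reach a p below 0.10 for 3 libraries against 3, or 0.20 for 3 against 2.

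In males, 5 of the 7 genes tested differed between AS and WT glomeruli. Vim and Anxa2 rose in AS, while Lcn2, Clu and Spp1 fell. Havcr1 and Sox9 did not pass, and Krt20 was too low to be tested. Among all 15863 genes tested in males, 35.5% were called, of which 16.6% of all genes were higher and 18.9% lower in AS, so a call was common in this comparison. The AS and WT libraries did not overlap for 5 of the 7 genes, against 53.1% of all genes tested.

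**Figure D1:**
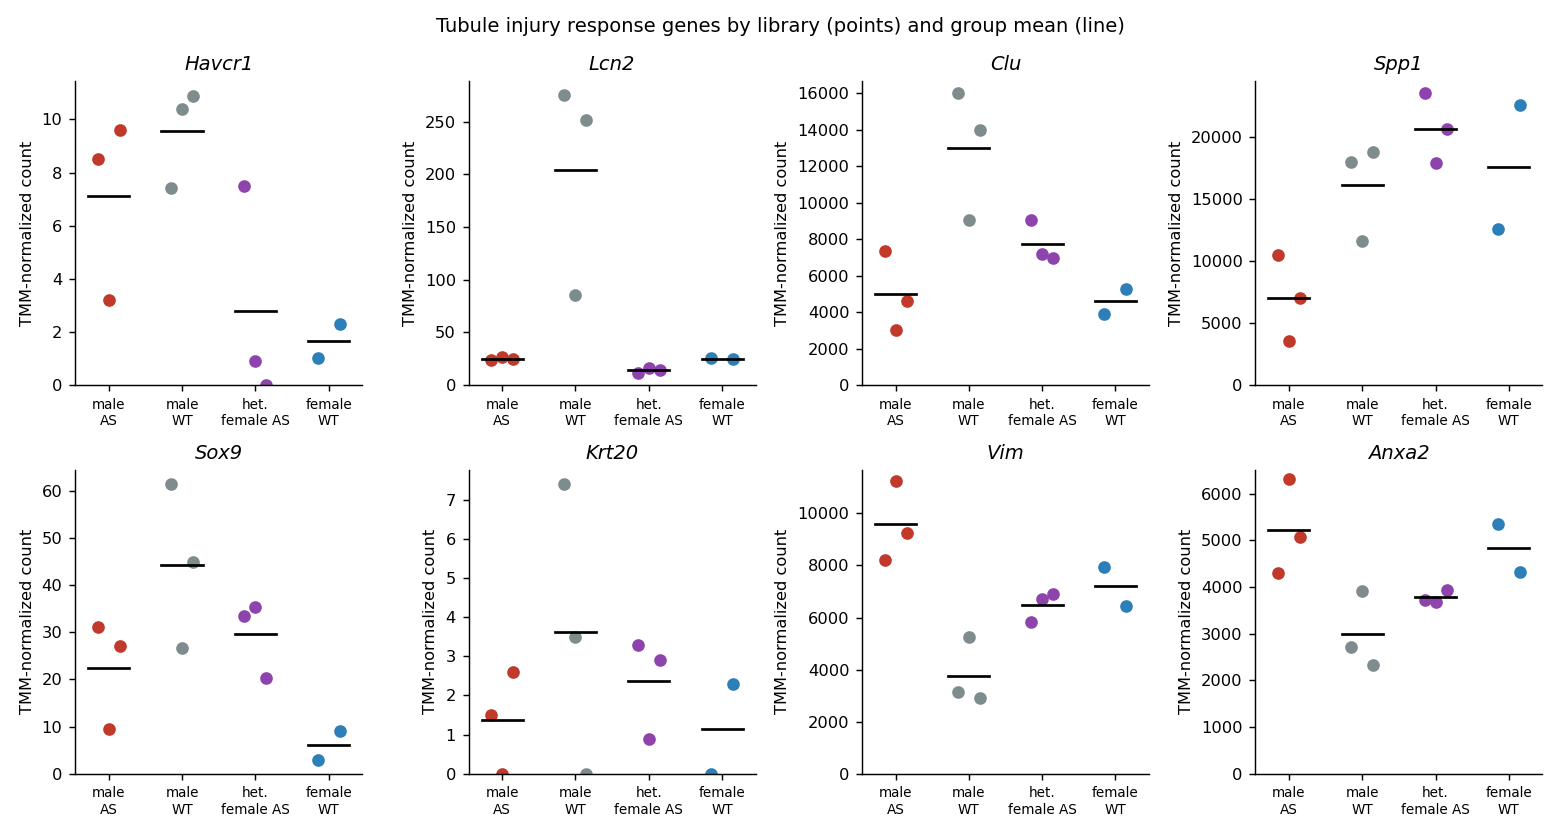
TMM-normalized counts of the 8 genes (vertical axis, starting at 0) in male AS, male WT, heterozygous female AS and female WT glomeruli. Each point is a library and each line a group mean. In Lcn2 the 3 male AS libraries lie between 24.0 and 27.0 and all male WT libraries are above them, whereas in Vim the male AS libraries are all above the male WT libraries.

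Vimentin, the filament of mesenchymal and many glomerular cells, had TMM-normalized counts of 8224.9, 11259.1 and 9245.6 in the male AS libraries and 3135.2, 5240.2 and 2911.0 in the male WT libraries. Every AS library was above every WT library. The group means were 9576.5 ± 1544.0 in AS and 3762.1 ± 1285.0 in WT (SD, n = 3 each), and the log2 fold change was 1.38 (standard error, SE, 0.24; adjusted p = 0.00771 from limma). Vim lies on the plus strand at chr2:13574311-13582826 of GRCm38.p6, the build equivalent to the mm10 assembly used for alignment.

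Anxa2, which binds the plasminogen activator system at the cell surface, had counts of 4297.0, 6311.0 and 5078.4 in male AS and 2715.7, 3911.0 and 2332.9 in male WT glomeruli. The lowest AS library was above the highest WT library by a margin smaller than the range within either group. The log2 fold change was 0.82 (SE 0.22, adjusted p = 0.0254 from limma). Anxa2 lies at chr9:69453683-69491792 on the plus strand and overlaps Gm16144 on the opposite strand and the microRNA gene Mir3109. Whether the authors counted by strand is not given in the sources used here, so reads of Anxa2 and Gm16144 may not be separated.

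Lcn2 had counts of 24.0, 27.0 and 24.4 in male AS and 275.5, 85.4 and 252.1 in male WT glomeruli. The AS libraries were nearly level, and the spread lay in WT, where replicate 2 was far below the other two. Mean counts were 25.1 ± 1.62 in AS and 204.3 ± 103.6 in WT (SD, n = 3 each), 8.14-fold higher in WT. The fitted log2 fold change was -2.24 (SE 0.37, adjusted p = 0.00687 from limma). Lcn2 lies on the minus strand at chr2:32384637-32387739.

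Clu had counts of 7361.3, 3036.2 and 4582.7 in male AS and 16012.5, 9020.8 and 13984.1 in male WT glomeruli. The groups did not overlap, and replicate 2 was the lowest library of each. The log2 fold change was -1.43 (SE 0.34, adjusted p = 0.0172 from limma). Clu lies on the plus strand at chr14:65968483-65981548.

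Spp1 had counts of 10511.5, 3555.1 and 6987.1 in male AS and 17997.3, 11593.3 and 18805.3 in male WT glomeruli. The highest AS library came close to the lowest WT library, but the groups did not overlap. The log2 fold change was -1.30 (SE 0.38, adjusted p = 0.034 from limma). Spp1 lies on the plus strand at chr5:104435111-104441053 and overlaps Gm42793 on the same strand, so reads may be shared between them.

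Sox9 had counts of 31.0, 9.5 and 27.0 in male AS and 61.5, 26.6 and 44.8 in male WT glomeruli. The AS range reached into the WT range, and the log2 fold change of -0.63 (SE 0.29) did not pass (adjusted p = 0.119 from limma). Sox9 lies on the plus strand at chr11:112782210-112787757.

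Havcr1, the classical marker of injured proximal tubule, was near the limit of detection. Its counts were 8.5, 3.2 and 9.6 in male AS and 7.4, 10.4 and 10.9 in male WT glomeruli, a handful of read pairs per library, and the groups overlapped. The log2 fold change was -0.15 (SE 0.16, adjusted p = 0.49 from limma). Krt20 was listed at 1.5, 0 and 2.6 in male AS and at 7.4, 3.5 and 0 in male WT glomeruli. Both lie on chromosome 11, Havcr1 on the plus strand at chr11:46739822-46779578 and Krt20 on the minus strand at chr11:99428385-99438153.

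Lcn2 and Vim passed whichever of the 6 male libraries was left out (highest adjusted p = 0.0366 and 0.0387 from limma). The other calls depended on single libraries, while their log2 fold changes kept their sign. Clu lost its call without WT replicate 1, WT replicate 3 or AS replicate 3 (-1.26, -1.36 and -1.42, adjusted p up to 0.0705 from limma). Without any one of these or AS replicate 2, Spp1 (-1.36 to -0.88, adjusted p up to 0.113) and Anxa2 (0.66 to 0.83, up to 0.0861) lost theirs. Without a filter on low values, Spp1 and Anxa2 kept their fold changes and did not pass (adjusted p = 0.0751 and 0.0542 from limma).

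The promoters of the genes that differed in males are shown because Vim and Anxa2 rose together while Lcn2 and Spp1 fell together in the same libraries. Each is the 250 bases before the RefSeq start on GRCm38.p6, written 5′ to 3′ on the strand of the gene, with the first window for Spp1, which has 2. Capitals mark 3 motifs: the AP-1 site TGACTCA on both strands (TGAGTCA on the other), the GC box GGGCGG on both strands (CCGCCC on the other) and the TATA box TATAAA on the strand of the gene. Among 32851 windows of the same length, 4.5% hold the AP-1 letters, 32.7% a GC box and 7.6% TATAAA. Clu and Sox9 are not shown.
Vim promoter, chr2:13574061-13574310, plus strand: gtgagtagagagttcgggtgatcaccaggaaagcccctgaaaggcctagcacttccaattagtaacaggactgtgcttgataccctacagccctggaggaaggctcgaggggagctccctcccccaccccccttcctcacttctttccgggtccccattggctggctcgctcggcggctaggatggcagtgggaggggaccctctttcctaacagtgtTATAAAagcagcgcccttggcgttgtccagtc
Anxa2 promoter, chr9:69453433-69453682, plus strand: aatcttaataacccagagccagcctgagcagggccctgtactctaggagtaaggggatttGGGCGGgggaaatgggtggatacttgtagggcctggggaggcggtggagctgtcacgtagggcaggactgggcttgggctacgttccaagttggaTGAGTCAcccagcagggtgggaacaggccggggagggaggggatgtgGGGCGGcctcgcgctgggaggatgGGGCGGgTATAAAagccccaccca
Lcn2 promoter, chr2:32387740-32387989, minus strand: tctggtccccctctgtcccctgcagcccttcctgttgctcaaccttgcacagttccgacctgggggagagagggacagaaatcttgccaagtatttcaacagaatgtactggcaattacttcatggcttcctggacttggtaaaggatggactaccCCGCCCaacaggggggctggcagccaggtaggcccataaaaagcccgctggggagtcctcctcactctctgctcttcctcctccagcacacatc
Spp1 promoter, chr5:104434861-104435110, plus strand: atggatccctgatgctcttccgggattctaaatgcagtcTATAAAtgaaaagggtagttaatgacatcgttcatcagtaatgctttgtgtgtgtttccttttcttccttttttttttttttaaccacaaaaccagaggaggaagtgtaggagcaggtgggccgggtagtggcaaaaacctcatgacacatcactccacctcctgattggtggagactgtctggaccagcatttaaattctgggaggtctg
The Anxa2 window holds an AP-1 match that begins 95 bases before the start, GC boxes at 190, 48 and 24 bases and TATAAA at 17 bases. The Vim window has TATAAA at 32 bases and no other match, Lcn2 has a GC box at 94 bases, and Spp1 has TATAAA at 211 bases. Of the genes that were low everywhere, Krt20 has TATAAA at 29 bases and Havcr1 has no match in its 3 windows. The matches are letters in a window, and no motif was shared by Vim and Anxa2 other than TATAAA.

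Markers of the tubule moved with genotype in males. All 28 proximal tubule markers fell in AS, with a median log2 fold change of -2.32, against 0.00 over all genes tested, and 12 of 23 markers of the distal tubule and collecting duct fell while none rose. The proximal tubule markers summed to 123973, 51223 and 110794 in the AS libraries and 524047, 333835 and 574132 in the WT libraries. Podocyte markers ran the other way, with 14 of 19 higher in AS and none lower, and sums of 423165 to 531882 in AS and 198380 to 304218 in WT. Of 18 glomerular endothelial markers 11 rose and none fell. Their part in the differences of the 8 genes was tested only through a fit with the proximal tubule markers, given after the levels by library.

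Within each male group Spp1 had the same order of libraries as the proximal tubule sums, and Vim and Anxa2 the opposite order. AS replicate 2 and WT replicate 2 had the lowest proximal tubule sums of their groups. They also had the lowest Clu, Spp1 and Sox9 and the highest Vim and Anxa2. Leaving out both, which was chosen after seeing the data, kept the same 5 calls in males.

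**Figure D2:**
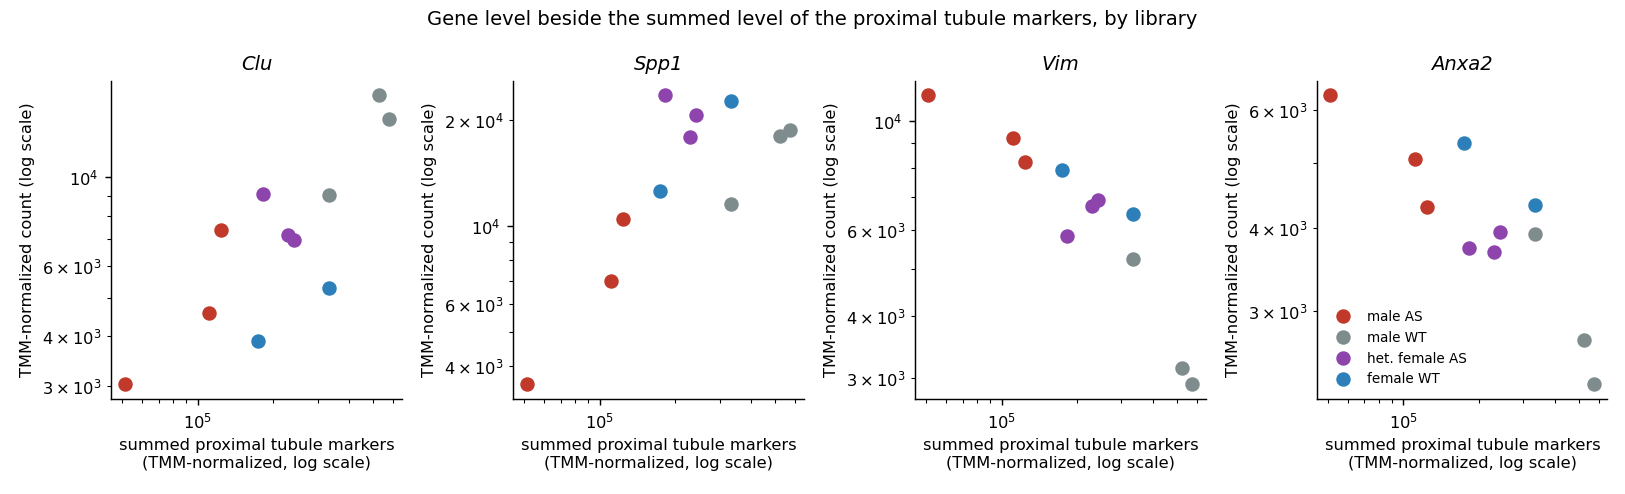
TMM-normalized counts of Clu, Spp1, Vim and Anxa2 (vertical log axes) beside the summed TMM-normalized counts of 28 proximal tubule markers (horizontal log axes), with 1 point per library coloured by group. The male AS libraries, with sums of 51223 to 123973, sit at the left, and the male WT libraries, with 333835 to 574132, reach furthest right; the lowest sum goes with the lowest Clu and Spp1 and the highest Vim and Anxa2.

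When the mean log2 level of the proximal tubule markers entered the male fit, none of the genes passed, and 1 had an unadjusted p under 0.05; of all genes none passed and 767 did so unadjusted. The log2 fold changes in that fit were -1.27 for Lcn2, 0.50 for Clu, 1.11 for Spp1, 0.94 for Sox9, 0.36 for Havcr1, 0.19 for Vim and -0.38 for Anxa2, with adjusted p = 0.975 to 0.991 from limma. The marker level did not overlap between male AS and male WT, so genotype and marker level can hardly be told apart in this fit.

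The male libraries were also set relative to the tubule markers. Per 1000 summed counts of proximal tubule markers, Clu was at 41.4 to 59.4 in AS and 24.4 to 30.6 in WT, and Spp1 at 63.1 to 84.8 in AS and 32.8 to 34.7 in WT. Sox9 was at 0.186 to 0.25 in AS and 0.0781 to 0.117 in WT, and Havcr1 at 0.062 to 0.0864 in AS and 0.0141 to 0.0311 in WT. On this scale these 4, Vim (13.82-fold) and Anxa2 (9.72-fold) were higher in every AS library than in every WT library, but so were 94.8% of all genes tested, because the divisor was lower in AS. Lcn2 overlapped, at 0.194 to 0.527 in AS and 0.256 to 0.526 in WT.

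Per 1000 summed counts of distal tubule and collecting duct markers, the order was different again. Clu stood at 81.6 to 118 in AS and 118 to 168 in WT, Spp1 at 117 to 161 in AS and 158 to 188 in WT, and Sox9 at 0.343 to 0.62 in AS and 0.365 to 0.644 in WT, so all 3 overlapped. Havcr1, at 0.0944 to 0.22 in AS and 0.0773 to 0.143 in WT, and Anxa2, at 47.6 to 245 in AS and 19.6 to 53.7 in WT, overlapped as well. Vim was higher in every AS library, at 91.2 to 437 against 24.5 to 72 in WT, as were 22.4% of all genes tested. Lcn2 was lower in every AS library, at 0.266 to 1.05 against 1.17 to 2.88 in WT, as were 4.9% of all genes tested. These ratios were chosen after seeing the data, rest on markers that themselves differed between the groups, and were given no test.

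**Figure D3:**
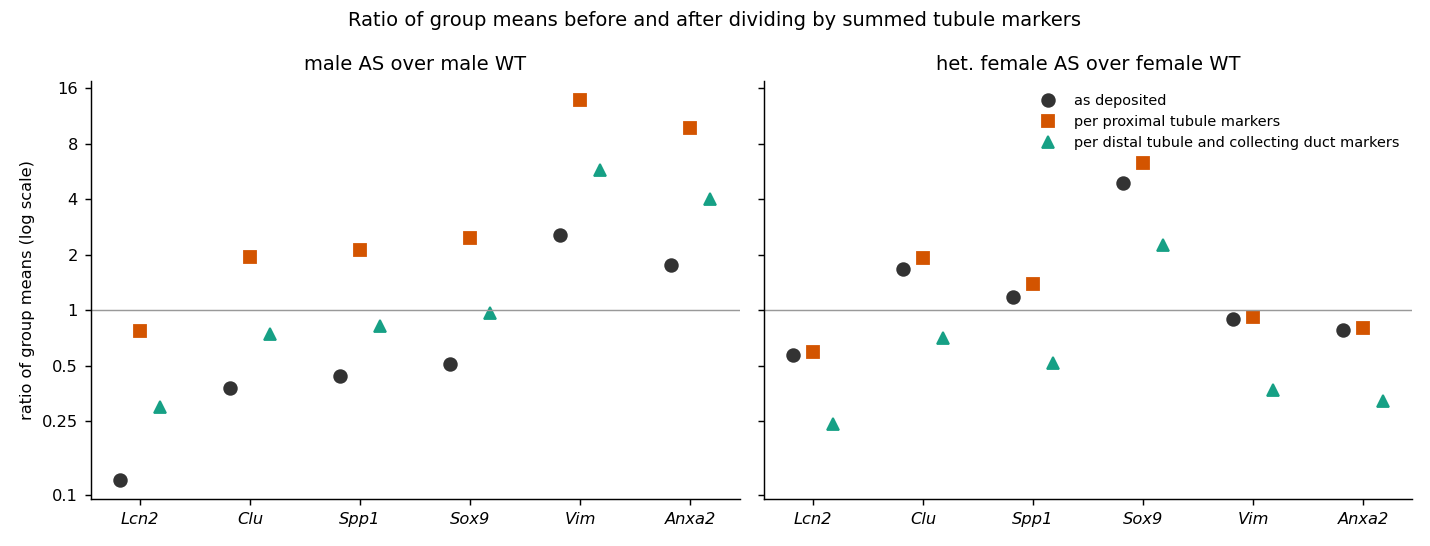
Ratio of the AS to the WT group mean (vertical log axis) for 6 genes in males (left) and females (right), as deposited, per summed proximal tubule markers and per summed distal tubule and collecting duct markers. In males Clu, Spp1 and Sox9 lie below 1 as deposited, at 0.38, 0.44 and 0.51, and above it per proximal tubule marker, at 1.95, 2.13 and 2.47, a scale on which 94.8% of all genes tested are higher in every AS library.

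Neutrophil markers, listed because neutrophils store Lcn2, did not separate the male groups. The 10 markers in the tables summed to 225, 1090 and 224 in male AS and 779, 482 and 953 in male WT libraries. AS replicate 2, with the highest sum, had 27.0 counts of Lcn2, close to the other AS libraries. WT replicate 2, with the lowest WT sum, also had the lowest WT count of Lcn2, at 85.4. The part of neutrophils in the Lcn2 values was not tested. Of 6 neutrophil markers tested in males 1 rose and 1 fell.

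In females, none of the 6 genes tested passed at adjusted p under 0.05 by limma. Clu, Lcn2 and Anxa2 had an unadjusted p under 0.05, as did 21.8% of all genes; so did Sox9, which entered the test through its AS libraries alone. Among all 15785 genes tested in females 1.41% were called, with 1.06% higher and 0.348% lower in heterozygous AS. The libraries of AS and WT did not overlap for 4 of the 6 genes tested, against 40.4% of all genes tested. Sox9 is among these 4, with the same limit. Havcr1 and Krt20 were too low to be tested.

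Sox9 had counts of 33.4, 35.4 and 20.3 in heterozygous female AS and 3.0 and 9.0 in female WT glomeruli. Every AS library was higher, and the WT values are a few read pairs. Sox9 met the filter of 0.5 CPM through the 3 AS libraries alone, where it is high, so its female values are a description and its test no support. The log2 fold change was 0.99 (SE 0.21, adjusted p = 0.0736 from limma). Clu had counts of 9063.9, 7169.6 and 6947.0 in heterozygous AS and 3904.1 and 5279.4 in WT glomeruli. All AS libraries were above both WT libraries, and the log2 fold change was 0.75 (SE 0.19, adjusted p = 0.0918 from limma).

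Lcn2 was low in both female groups, at 11.7, 16.3 and 14.5 in heterozygous AS and 25.2 and 24.9 in WT glomeruli. Every AS library was lower, and the log2 fold change was -0.42 (SE 0.15, adjusted p = 0.178 from limma). Anxa2 had counts of 3726.1, 3683.8 and 3938.3 in heterozygous AS and 5355.9 and 4329.0 in WT glomeruli. The AS libraries lay close together below both WT libraries, with a log2 fold change of -0.35 (SE 0.13, adjusted p = 0.195 from limma).

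Spp1 and Vim overlapped between the female groups. Spp1 had counts of 23516.7, 17886.0 and 20650.5 in heterozygous AS and 12590.4 and 22614.8 in WT glomeruli, with a log2 fold change of 0.28 (SE 0.28, adjusted p = 0.593 from limma). Vim had counts of 5839.8, 6719.2 and 6888.0 in heterozygous AS and 7926.1 and 6460.4 in WT glomeruli, with a log2 fold change of -0.15 (SE 0.15, adjusted p = 0.616 from limma). The WT libraries spread as far as the groups differed. Havcr1 was listed at 7.5, 0.9 and 0 in heterozygous AS and at 1.0 and 2.3 in WT glomeruli, and Krt20 at 3.3, 0.9 and 2.9 in AS and at 0 and 2.3 in WT glomeruli.

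The female calls changed with several choices. With equal column totals in place of TMM, Clu passed (adjusted p = 0.0392 from limma, with a range of 0.0227 to 0.277 over its alternatives), and Sox9, with the limit of its filter, had 0.0401 (0.00813 to 0.134). Leaving out WT replicate 2 leaves WT with 1 library assumed to vary like the AS group. The log2 fold changes were then 0.97 for Clu, 1.20 for Sox9 and -0.50 for Anxa2. With the repeated WT library kept as deposited, 4 genes passed, among them Sox9 with the same limit. That setting counts 1 library a second time, and 2523 of all genes passed in it, against 222 in the main fit. Equal column totals moved the median of all genes to 0.12 in females and 0.36 in males. The share of calls that were higher in AS moved to 92.9% in females, against 75.2% under TMM, and to 78.9% in males, against 46.8%.

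In females the summed proximal tubule markers overlapped between the groups, and the summed markers of the distal nephron did not. The proximal sums were 182257 to 242329 in heterozygous AS and 173810 to 332901 in WT, and none of 26 markers passed by limma or had an unadjusted p under 0.05. The distal tubule and collecting duct sums were 70117 to 94207 in heterozygous AS and 27077 to 44469 in WT. The mean log2 levels of these markers overlapped, at 9.64 to 9.96 in heterozygous AS and 9.10 to 9.83 in WT. Of 23 distal markers 5 rose: Pvalb (2.45), Trpm6 (2.13), Slc12a3, the thiazide-sensitive cotransporter (2.02), Umod, the uromodulin of the thick ascending limb (1.61), and Kcnj1, a potassium channel (1.26), as log2 fold changes. The water channel gene Aqp4 fell by 1.55. The other 17 did not pass, and the median log2 fold change of the 23 was 0.06. Per 1000 summed distal markers, Clu was at 85.9 to 99.1 in heterozygous AS and 119 to 144 in WT. This was the reverse of its order as deposited. Sox9 was at 0.289 to 0.424 in AS and 0.112 to 0.203 in WT. It met the filter through its AS libraries alone, so its ratio is a description. Of all genes tested in females, 85.5% were lower and 1.2% higher in every AS library on this scale. With the mean level of the proximal tubule markers in the female fit, Clu (0.80, adjusted p = 0.0282) and Anxa2 (-0.40, 0.0399) passed by limma, among 2521 genes in all. Sox9 (1.02, 0.0316) did so too, but it met the filter through its AS libraries alone, so its test is no support. The part of the distal markers in the female values was not tested.

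**Figure D4:**
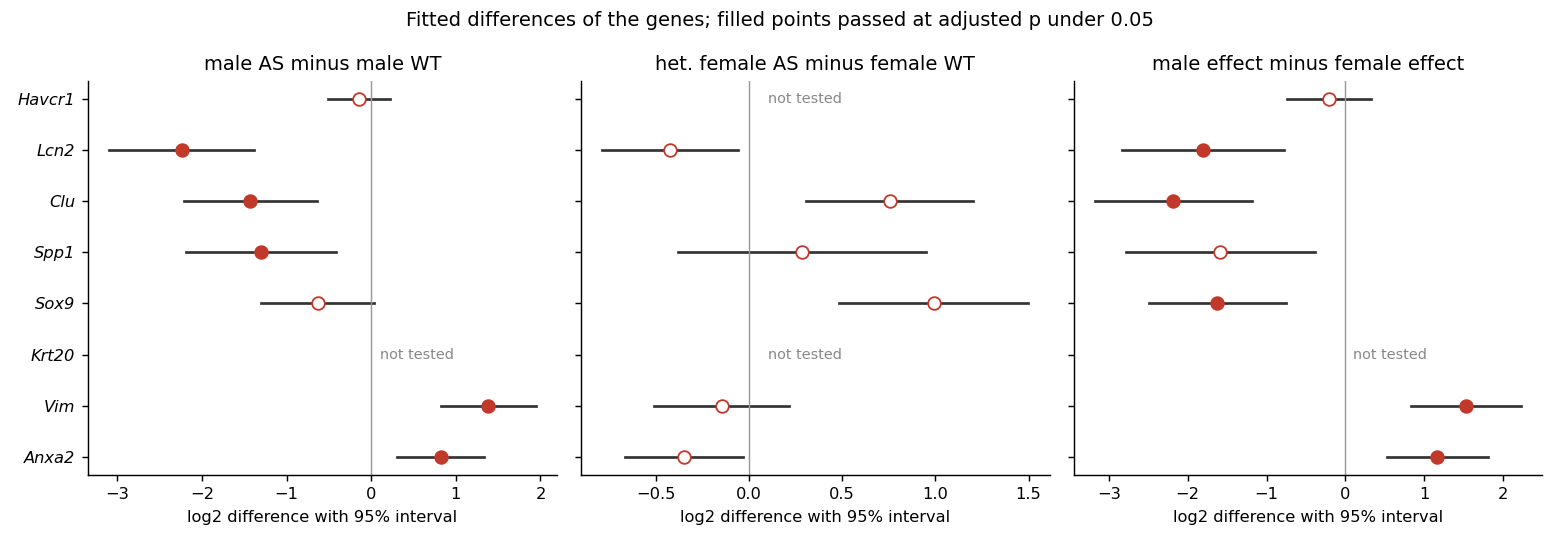
Fitted log2 differences of the 8 genes with 95% intervals (horizontal axes) for male AS minus male WT, heterozygous female AS minus female WT, and the male effect minus the female effect, with filled points past adjusted p under 0.05. In males Lcn2 (-2.24), Clu (-1.43), Spp1 (-1.30), Vim (1.38) and Anxa2 (0.82) are filled, in females no gene is, and the difference is filled for 5 genes.

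The male and the female effects differed for 5 of the 7 genes tested, against 21.7% of all 16506 genes, of which 9.66% of all genes had a higher and 12.1% a lower male effect. The male minus female log2 difference was -2.18 for Clu (SE 0.45, adjusted p = 0.021), -1.63 for Sox9 (0.40, 0.0253) and -1.81 for Lcn2 (0.47, 0.028). It was 1.53 for Vim (0.32, 0.0211) and 1.17 for Anxa2 (0.29, 0.0259), all from limma. Clu fell in male AS, and all 3 heterozygous female AS libraries were above both female WT libraries. For Lcn2 the AS libraries were lower in both sexes, and the male difference was larger. Sox9 passed in neither sex alone (adjusted p = 0.119 in males and 0.0736 in females from limma). Its female WT counts, 3.0 and 9.0, lay below the pseudocount of 17.6, so its difference rests partly on values near the floor. Spp1 (-1.58, SE 0.54, adjusted p = 0.0571 from limma) and Havcr1 (-0.21, SE 0.24, adjusted p = 0.559) did not pass. None of the 5 passed (5 or 6 of the 7 had an unadjusted p under 0.05) without male WT replicate 1, male WT replicate 3 or female WT replicate 1, with adjusted p up to 0.0648 in the first 2 cases and up to 0.15 in the last from limma.

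Levels across the 4 groups are given side by side here, although the male and female tables may have been scaled apart. Vim stood highest in male AS (mean 9576.5), then female WT (7193.3), heterozygous female AS (6482.3) and male WT (3762.1), and only the female groups overlapped as neighbours in this order. Anxa2 had the same order, with overlap between male AS and female WT and between heterozygous female AS and male WT. Lcn2 stood apart in male WT (204.3), while male AS (25.1) and female WT (24.9 and 25.2) overlapped and heterozygous female AS (14.2) was lowest. Sox9 was lowest in female WT (6.03), below all other groups, whose neighbours overlapped. Spp1 was lowest in male AS (7017.9), below 3 groups whose neighbours overlapped, and for Clu, Havcr1 and Krt20 every pair of neighbours overlapped.

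Per 1000 bases of exon, Spp1 was the most abundant of the genes in males, with mean TMM-normalized counts of 4260 in male AS and 9790 in male WT glomeruli. Vim had 2020 in male AS and 793 in male WT, Clu 1450 in male AS and 3780 in male WT, and Anxa2 1400 in male AS and 800 in male WT. So Vim stood above Clu in AS and below it in WT. Lcn2 had 9.58 in male AS and 77.9 in male WT glomeruli, Sox9 had 5.44 in AS and 10.7 in WT, Havcr1 3.07 in AS and 4.14 in WT, and Krt20 0.719 in AS and 1.88 in WT.

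The other tubule injury genes moved both ways in males. Of 50 genes on the panel 46 were tested, of which 10 rose and 12 fell, with a median log2 fold change of -0.08. Of all genes tested in males 16.6% were called higher and 18.9% lower. Among those that rose, Ccn2, a matricellular growth factor, was at 26348.7 ± 4478.3 in AS and 6962.7 ± 1941.5 in WT (SD, n = 3 each; log2 fold change 1.94, adjusted p = 0.00421 from limma). The annexin genes Anxa3 (1.56) and Anxa1 (1.32), Dcdc2a (1.26), the calcium binding S100a6 (1.21) and the cytokine gene Il18 (0.98) also rose, as log2 fold changes. Among those that fell, Vcam1, an adhesion molecule of injured tubules and activated endothelium, was at 160.7 ± 23.4 in AS and 725.0 ± 241.8 in WT (-2.02, adjusted p = 0.00403 from limma). Krt18 (-2.15), Krt8 (-1.82), the stress cytokine Gdf15 (-2.09) and the galectin gene Lgals3 (-1.33) fell too, and Krt8 and Krt18 are keratins of simple epithelium that are also on the list of parietal epithelial markers. Krt18 did not pass without WT replicate 1 (-2.09, adjusted p = 0.0542 from limma). Of those 9 markers 5 fell and 1 rose.

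**Figure D5:**
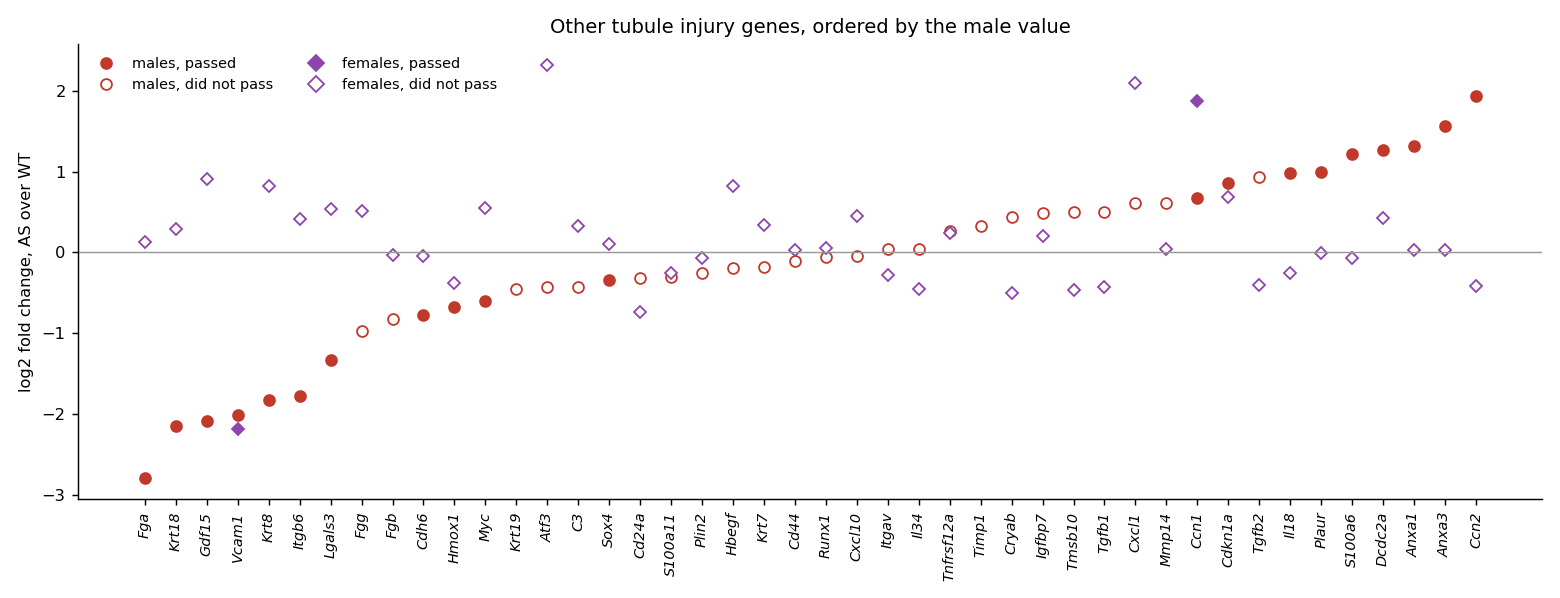
Log2 fold change of AS over WT (vertical axis) for 44 of the injury panel genes tested in males, ordered by the male value, with males as circles and females as diamonds; filled symbols passed at adjusted p under 0.05. Ccn2 (1.94) lies furthest right, Ccn1 (1.87) and Vcam1 (-2.18) are the only filled female symbols, and Vcam1 is below 0 in both sexes.

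In females 2 of 44 panel genes passed, against 1.41% of all genes tested. Ccn1, an immediate early matricellular gene, rose to 2942.3 ± 140.8 in heterozygous AS (SD, n = 3), against 793.7 ± 67.8 in WT (n = 2), a log2 fold change of 1.87 (adjusted p = 0.00304 from limma). Vcam1 fell to 256.1 ± 132.4, against 1142.4 ± 127.9 in WT (-2.18, adjusted p = 0.0431 from limma). The Vcam1 call was lost without a filter (adjusted p = 0.115 from limma) and without WT replicate 1, AS replicate 1 or AS replicate 2 (0.0709, 0.111 and 0.145), with log2 fold changes of -1.93 to -2.29. In all, 16 panel genes had an unadjusted p under 0.05, against 21.8% of all genes tested in females.

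Receptors, ligands and filament partners of the 8 genes were counted next. Of 32 partner genes 29 were tested in males, of which 7 rose and 8 fell, with a median log2 fold change of -0.11. The shares of all genes tested in males were 16.6% higher and 18.9% lower. Nes, encoding the vimentin partner nestin, was at 30717.4 ± 5894.4 in AS and 10363.0 ± 2836.0 in WT (1.59, adjusted p = 0.0066 from limma). Of the integrin genes whose products bind osteopontin, Itgb1 (0.83), Itga4 (0.92), Itga9 (0.65) and Itgb5 (0.60) rose, Itgb3 fell (-0.57, adjusted p = 0.0334 from limma), and Itgav did not pass (0.04, adjusted p = 0.849). The calls of Itgb1, Itga4 and Itga9 were each lost without WT replicate 1, WT replicate 3, AS replicate 2 or AS replicate 3, with log2 fold changes of 0.51 to 1.02. Lrp2, encoding megalin, which takes up Lcn2 and clusterin and is itself a proximal tubule marker, was at 5024.7 ± 2343.4 in AS and 25032.5 ± 12756.5 in WT (-2.34, adjusted p = 0.0102 from limma). Timd2 (-2.04), of the Havcr1 family, and the clusterin receptor gene Vldlr (-1.39) fell as well, though Vldlr did not pass without WT replicate 1 or 3 (adjusted p = 0.0649 and 0.0623 from limma). Anxa4 (-0.41) passed under TMM, but was at -0.00 with equal column totals (adjusted p = 0.996 from limma), and lost its call without any one of 4 libraries, WT replicate 1 or 3 or AS replicate 2 or 3. S100a10, whose product forms a complex with annexin A2, had a log2 fold change of 0.25 and did not pass. In females none of 28 partner genes passed, against 1.41% of all genes tested, and 5 had an unadjusted p under 0.05, against 21.8%. The most abundant were Plat, at 27196.9 ± 4640.7 in heterozygous AS and 39632.2 ± 9796.0 in WT, and Lrp2, at 27859.2 ± 3898.4 in AS and 33011.3 ± 13891.5 in WT.

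Likeness of pattern was taken over the 11 libraries as Pearson r of log2 values centred within sex, among 11291 genes with a mean of at least 5 CPM. Vim was most like Pxdc1 (0.996), Nid2 (0.991) and Tmem54 (0.988), and Anxa2 most like Tbkbp1 (0.995), Fmnl3 (0.991) and Slc44a2 (0.987). Clu was most like Scnn1a (0.988) and Trpv5 (0.987), channel genes of the distal nephron, and Acat1 (0.986). Spp1 was most like Gstt3 (0.991), Atp1b1 (0.987) and Ddo (0.984), and Lcn2 most like Lclat1 (0.986), Hdlbp (0.984) and Maged1 (0.980). For Sox9 they were Tasp1 (0.969), Tox3 (0.953) and Lynx1 (0.951), for Havcr1 Mcm9 (0.852), Pmaip1 (0.847) and Tbc1d24 (0.832), and for Krt20 Nsmce2 (0.936), Vegfd (0.933) and Snx22 (0.871), where the last 2 of the 8 genes rest on a few read pairs. Among the 8 genes themselves r was 0.95 between Clu and Spp1, 0.95 between Vim and Anxa2 and -0.96 between Clu and Anxa2. These values are descriptions, since the libraries share genotype and the level of tubule markers.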

How the data were processed

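RNA-seq was performed by the authors on isolated glomeruli, with KAPA stranded polyA libraries and 150 bp paired reads. According to the submitters' notes and the study's methods, FastQC, cutadapt, STAR (mm10) and Partek were used for quality checks, trimming, alignment and counting; versions are not given in the sources used here. The deposited signal values are gene counts that the authors scaled by TMM, in 1 table per sample. They are not raw counts: of the low values, 76.5% to 80.5% were whole multiples of the step of 1 read pair (tolerance 0.01). Precision is therefore taken from the spread between libraries, and no counting interval is given. Values below 1e-06 were taken as 0, and 22 male and 23 female symbols turned into dates were left out.

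Tests used limma 3.58.1 (R 4.3.3) with a mean-variance trend, for male AS against male WT, heterozygous female AS against female WT, and the difference between these effects, with pseudocounts of 17.5, 17.8 and 17.6. Alternatives were pseudocounts of 0.25 and 4 CPM, no filter or 2 CPM, quantile and median-of-ratios scaling, equal column totals, a replicate block, a proximal tubule covariate, both sexes in one fit, the repeated library kept, and each library left out. The fit was tested on simulated data. Coordinates and promoters are from RefSeq, and strands, exon lengths and overlapping genes from GENCODE M21. Python 3.11.15 was used otherwise. Named are all 8 genes, up to 6 panel and partner genes in each direction with the smallest adjusted p (or 2 of the highest mean where none passed), and the 3 genes most like each. A pair of panel genes that met this rule is not reported here and is left out of the plot of the panel, though the counts include it. S100a10, Itgb3, Itgb5, Itgav and the distal nephron genes were named after their values were seen. The 8 genes and all lists were chosen with earlier results of these data known.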

Additional observations from a re-analysis of the deposited data

Results flagged for a closer look

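The following genes were picked out because the effect of AS in males and the effect in heterozygous females differed by a test of the difference itself, with limma's adjusted p between 0.015 and 0.0382. Of all 16506 genes tested, 21.7% passed the same test. Values are the male minus the female log2 fold change. Higher male effects were found for Vim (1.53) and Anxa2 (1.17), and among the panel and partner genes for Ccn2 (2.36), Nes (1.87), Anxa3 (1.53), S100a6 (1.28), Anxa1 (1.28), Il18 (1.24) and Itgb1 (1.05). Lower male effects were found for Clu (-2.18), Lcn2 (-1.81) and Sox9 (-1.63), and for Gdf15 (-2.99), Krt8 (-2.65), Krt18 (-2.44), Timd2 (-2.32), Lrp2 (-2.15), Lgals3 (-1.87) and Ccn1 (-1.20). Ccn1 was higher in AS in both sexes. Sox9 passed in neither sex alone, and its female WT counts lay below the pseudocount. With the proximal tubule covariate none of these genes passed (lowest adjusted p = 0.284 from limma, for Ccn1). Leaving out female WT replicate 1, so that female WT has 1 library, kept the sign of each difference but not the calls. Female AS and WT carry different header labels, which cannot be told apart from genotype. Of 28 proximal tubule markers 27 passed the same test with a lower male effect.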

How the results depend on the processing

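Among the male libraries the count of the 8 genes past the test was 5. It was 3 without a filter, 0 with the proximal tubule covariate and 2 to 5 when a library was left out, namely 2 without WT replicate 1, WT replicate 3 or AS replicate 3 and 3 without AS replicate 2. The count of all genes, 5636, was 0 with the covariate (767 at unadjusted p under 0.05, by limma) and ranged over 2485 to 5873 when a library was left out. With that covariate Krt8 had a log2 fold change of 0.45, Krt18 0.50, Lrp2 0.63, Vldlr 0.81, Clu 0.50, Spp1 1.11, Sox9 0.94, Havcr1 0.36 and Anxa2 -0.38 in males, each opposite in sign to the value above.

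Among heterozygous females Sox9 met the filter through its AS libraries alone, and every count of the 8 genes above 0 includes it. The main count of the 8 genes was 0 in heterozygous females against WT. It was 2 with equal column totals, 3 with the covariate, 4 with the repeated WT library kept and 0 to 3 when a library was left out, with 3 without WT replicate 2. The count of all genes, 222, was 8 without a filter, 146 with a filter at 2 CPM, 676 with equal totals, 2521 with the covariate, 2523 with the repeated library kept and 4 to 1803 when a library was left out, namely 147 without WT replicate 1, 1803 without WT replicate 2, and 9, 4 and 44 without AS replicate 1, 2 and 3. Female Vim was 0.02 with quantile normalization and 0.01 with equal totals, and -0.29 to 0.00 when a library was left out. Female Lrp2 was 0.04 with quantile normalization and -0.63 to 0.26, and female Spp1 -0.14 to 0.71, when a library was left out.

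For the difference between the sexes the count of the 8 genes, 5, was 0 with the covariate and 0 to 6 when a library was left out, with 0 without male WT replicate 1, male WT replicate 3 or female WT replicate 1, 2 without female AS replicate 2, and 3 without male AS replicate 3 or female AS replicate 3. The count of all genes, 3589, was 1403 without a filter, 0 with the covariate (842 unadjusted), 5820 with the repeated library kept and 2 to 4855 when a library was left out, lowest without female WT replicate 1. With the covariate the difference was 0.05 for Havcr1, 0.46 for Spp1 and 0.39 for Lrp2. The cause of these changes was not tested. Whether the replicate numbers pair the samples is not known. In males, deviations from the group means correlated at 0.05, 0.52 and 0.06 for like numbers and at -0.50 to 0.48 for unlike numbers. The female values for like numbers were 0.26 and -0.05. With 2 WT libraries, whose deviations mirror each other, these cannot show pairing. With a replicate block 6 of the 8 genes passed in males (Sox9, adjusted p = 0.0191 from limma) and 6 for the difference. In females 1 passed with the block, among 881 genes in all. It was Sox9 (adjusted p = 0.00813 from limma), which met the female filter through its AS libraries alone. The other settings kept the counts within 1.5 times. Havcr1 and Krt20, at a few read pairs per library, are limited by depth.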
